A study of Mus musculus with 9 samples.

Results

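The genes described here encode the hydrolases and membrane proteins of the lysosome, with subunits of its proton pump and the transcription factors TFEB and TFE3. They were taken from a list of 47 mouse gene symbols. A gene was read from its brightest probe set, by the mean of the 9 arrays, among those that the array annotation pairs with a single symbol, and 46 of the 47 genes could be measured among 22180 genes in all. Glb1, which encodes a beta-galactosidase, lies only on a probe set shared with another symbol and is not analysed here. RNA came from cultured mouse podocytes, the epithelial cells that wrap the capillaries of the kidney glomerulus, after 11 days of differentiation at 37 °C. There were 3 groups of 3 arrays: DMSO, the vehicle; 2.5 µM thapsigargin; and 2.5 µM thapsigargin together with 10 µM forskolin. Treatment lasted 16 hours, and the last group is called combined below. Thapsigargin inhibits SERCA, the calcium pump of the endoplasmic reticulum (ER), and so causes ER stress. Forskolin raises cAMP by activating adenylyl cyclase. No forskolin group without thapsigargin and no other dose or time was analysed here. Within a group the arrays are labelled biological replicates, with no word on what was separate, and p-values therefore reflect only how far these arrays differ from each other, which may be technical.

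Lysosomes are acidic compartments in which proteases, glycosidases, sulfatases and lipases break down material delivered by endocytosis and autophagy. Most of the soluble hydrolases are folded and glycosylated in the ER, receive a mannose 6-phosphate tag in the Golgi apparatus and are sorted to the lysosome by receptors for that tag. TFEB and its relative TFE3 move to the nucleus on starvation or lysosomal stress and bind the CLEAR element, a sequence built around the E-box CACGTG that lies near the start of many lysosomal genes. Podocytes are long-lived cells that rely on lysosomes and autophagy, and defects of several of the enzymes below cause lysosomal storage diseases that can involve the kidney.

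The promoters are shown because several of these genes share that element. RefSeq windows of assembly GRCm38.p6, from 250 bases before to 50 bases after each annotated gene start, were found for 42 of the 47 genes, and some genes have more than 1 window. The octamer TCACGTGA, the core of the CLEAR element, was in a window of 6 of the 42 genes (14.3%), against 304 of 27025 genes in the whole promoter table (1.12%) and 244 of 16990 genes that have a window and were measured on the arrays (1.44%). The hexamer CACGTG, which every TCACGTGA contains, was in a window of 14 of the 42 genes (33.3%), against 8.09% and 9.19%. The element is already known from many lysosomal genes, so a higher share among these genes is no independent result, and the shares were not tested. Both strings read the same on either strand. The 250 bases before the start are printed below, 5′ to 3′ on the strand of the gene, for the 6 genes with the octamer, for Lamp1, which has 4 copies of the hexamer close to its start, and for Ids, which fell most after thapsigargin and has neither string in this window. Capitals mark TCACGTGA and any other CACGTG. The stretches lie at chr2:164833523-164833772 (plus strand) for Ctsa, chr7:142387828-142388077 (minus strand) for Ctsd, chr8:3500269-3500518 (plus strand) for Mcoln1, chr7:126583237-126583486 (minus strand) for Cln3, chrX:134601006-134601255 (minus strand) for Gla, chr8:105566061-105566314 (minus strand) for Atp6v0d1, chr8:13158911-13159160 (plus strand) for Lamp1 and chrX:70365086-70365335 (minus strand) for Ids.
Ctsa: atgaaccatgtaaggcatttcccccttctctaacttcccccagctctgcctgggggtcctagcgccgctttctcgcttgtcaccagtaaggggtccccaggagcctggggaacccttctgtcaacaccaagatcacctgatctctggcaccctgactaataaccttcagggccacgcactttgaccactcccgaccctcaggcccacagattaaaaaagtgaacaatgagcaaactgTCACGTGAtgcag
Ctsd: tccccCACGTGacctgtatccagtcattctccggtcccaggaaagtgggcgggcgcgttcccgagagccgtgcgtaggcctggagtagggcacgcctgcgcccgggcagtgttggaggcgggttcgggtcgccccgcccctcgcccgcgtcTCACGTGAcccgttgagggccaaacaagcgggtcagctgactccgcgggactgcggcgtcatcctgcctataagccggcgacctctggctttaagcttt
Mcoln1: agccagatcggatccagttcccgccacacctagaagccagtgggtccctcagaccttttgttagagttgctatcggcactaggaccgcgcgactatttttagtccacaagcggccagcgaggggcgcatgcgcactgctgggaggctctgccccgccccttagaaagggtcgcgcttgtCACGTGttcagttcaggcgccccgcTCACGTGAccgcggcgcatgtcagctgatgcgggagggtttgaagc
Cln3: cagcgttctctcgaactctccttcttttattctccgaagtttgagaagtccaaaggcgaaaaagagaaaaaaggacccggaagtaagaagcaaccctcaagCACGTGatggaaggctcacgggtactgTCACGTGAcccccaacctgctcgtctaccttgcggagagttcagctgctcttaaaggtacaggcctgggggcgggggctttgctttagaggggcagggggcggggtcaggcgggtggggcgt
Gla: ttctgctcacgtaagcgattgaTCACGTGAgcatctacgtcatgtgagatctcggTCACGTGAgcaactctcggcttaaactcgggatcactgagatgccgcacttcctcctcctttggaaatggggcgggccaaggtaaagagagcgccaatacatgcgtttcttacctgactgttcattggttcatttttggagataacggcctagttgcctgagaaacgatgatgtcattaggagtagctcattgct
Atp6v0d1: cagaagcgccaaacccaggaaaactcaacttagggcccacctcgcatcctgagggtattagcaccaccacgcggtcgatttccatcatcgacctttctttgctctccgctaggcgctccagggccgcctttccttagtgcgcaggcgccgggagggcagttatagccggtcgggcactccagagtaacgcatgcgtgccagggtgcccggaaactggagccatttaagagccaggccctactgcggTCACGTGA
Lamp1: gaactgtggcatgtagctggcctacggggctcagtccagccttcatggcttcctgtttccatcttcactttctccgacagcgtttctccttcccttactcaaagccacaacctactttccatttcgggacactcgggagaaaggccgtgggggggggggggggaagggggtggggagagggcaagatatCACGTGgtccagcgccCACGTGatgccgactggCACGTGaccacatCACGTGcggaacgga
Ids: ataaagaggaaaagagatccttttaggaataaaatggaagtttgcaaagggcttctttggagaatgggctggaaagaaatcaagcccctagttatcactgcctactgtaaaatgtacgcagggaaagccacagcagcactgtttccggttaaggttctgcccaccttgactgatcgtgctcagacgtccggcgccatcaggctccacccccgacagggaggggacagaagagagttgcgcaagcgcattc
Counted from the start, with negative positions before it, the octamer began at -13 in Ctsa, where a copy at 5 lies past the printed stretch, at -99 in Ctsd, at -46 in Mcoln1 and at -122 in Cln3. Gla held it at -228 and at -195, and in Atp6v0d1 it ran from -4 to 4 across the start, so that this stretch is 254 bases long and ends inside the gene. In Lamp1 the hexamers began at -61, -45, -28 and -15. Ctsd, Mcoln1 and Cln3 each had a hexamer of their own as well, at -245, -71 and -149. A match is a description of the letters, and whether a factor was bound there was not measured.

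The arrays of a group were alike, with Pearson correlations over 41345 probe sets of 0.989 to 0.993 within groups and 0.966 to 0.992 between groups. Hspa5, which encodes the ER chaperone BiP, rose by 1.60 ± 0.05 on the log2 scale after thapsigargin, with the same value on all 3 thapsigargin arrays. Ddit3, which encodes the ER stress factor CHOP, rose by 2.75 ± 0.06, and Nr4a1, a cAMP-induced nuclear receptor gene, rose by 3.22 ± 0.06 when forskolin was added. Of all genes, 16.9% were called lower and 18.2% higher after thapsigargin, and 4.17% lower and 3.7% higher when forskolin was added, by the limma test described below, and the marker counts that follow are to be read against these shares. The labelled cell type was checked on 8 measured podocyte markers. Actn4, Cd2ap, Plce1, Synpo and Podxl had mean log2 values of 8.46 to 11.8 on the DMSO arrays, whereas Nphs1 and Wt1, which encode nephrin and a podocyte transcription factor, read 6.55 and 6.80 and Ptpro 5.35, beside a median of all values of 5.84. Signal was not tested against background, so the presence of the last 3 is not shown. Of the 8 markers 5 fell and 1 rose after thapsigargin. Differences ran from -3.45 for Plce1 to 0.23 for Cd2ap, with a median of -0.37. With added forskolin 4 fell and 1 rose. Among these, Plce1 fell by 1.29 ± 0.08 and Podxl by 0.79 ± 0.11, and Synpo rose by 0.55 ± 0.08. Log2 values of the 8 markers summed to 70.53 to 70.91 on the DMSO arrays and 63.22 to 63.39 on the thapsigargin arrays. On the combined arrays the sums were 61.1 to 61.23. Of 11 tubular markers Aqp1, Cdh16 and Lrp2 read 11.71, 11.16 and 9.49 on the DMSO arrays and the others between 4.51 and 6.89. These 3 fell and 0 rose after thapsigargin, with sums over the 11 markers of 78.16 to 79.30 on the DMSO arrays and 69.92 to 70.84 on the thapsigargin arrays, and Cdh16 rose by 0.54 ± 0.05 with forskolin. Macrophages are rich in lysosomal enzymes, so 12 macrophage and leukocyte markers were examined too. On the DMSO arrays Csf1r, Cd14, Cd68 and Cx3cr1 read 7.98, 7.97, 7.94 and 7.21 and the others between 3.78 and 6.66, and 1 marker, Ptprc, which encodes the pan-leukocyte protein CD45, lay below the lower quartile of all values, 4.55, in every group. Of the 12 markers 2 fell and 0 rose after thapsigargin, and 2 rose and 0 fell when forskolin was added. Their log2 values summed to 72.56 to 74.52 on the DMSO arrays, 70.33 to 71.08 on the thapsigargin arrays and 72.56 to 73.21 on the combined arrays. Csf1r, the gene of a macrophage growth factor receptor, fell by 1.18 ± 0.12 after thapsigargin and rose by 0.82 ± 0.12 with forskolin, and Cd14 rose by 0.87 ± 0.09 with forskolin. Of 8 mesangial and pericyte markers 2 fell and 0 rose after thapsigargin, and the same number rose with forskolin, Mcam by 2.58 ± 0.07 and Pdgfrb by 0.38 ± 0.05. Of 9 endothelial markers 2 fell and 0 rose after thapsigargin, and 1 fell and 0 rose with forskolin. The part of these markers' changes in the results below was not tested, and in a bulk sample fewer cells of a type and less RNA per cell cannot be told apart.

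Thapsigargin lowered most of the lysosomal genes. Of the 46 measured, 34 fell, 3 rose and 9 did not pass the test, which was a limma fit to the whole table, called at a p below 0.05 after Benjamini-Hochberg adjustment. Over all 22180 genes 16.9% were called lower and 18.2% higher. The counts of the role groups after thapsigargin, given below, are to be read against these shares. At least 2-fold falls were found for 11 of the 46 genes, against 2.94% of all genes. The median log2 difference was -0.68 over the 46 genes and -0.04 over all genes. All 3 thapsigargin arrays lay below all 3 DMSO arrays for 35 of the 46 genes, against 22.3% of all genes. RMA, with which the authors made the values, makes the arrays' distributions alike, so each change is relative to the bulk of the genes.

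**Figure D1:**
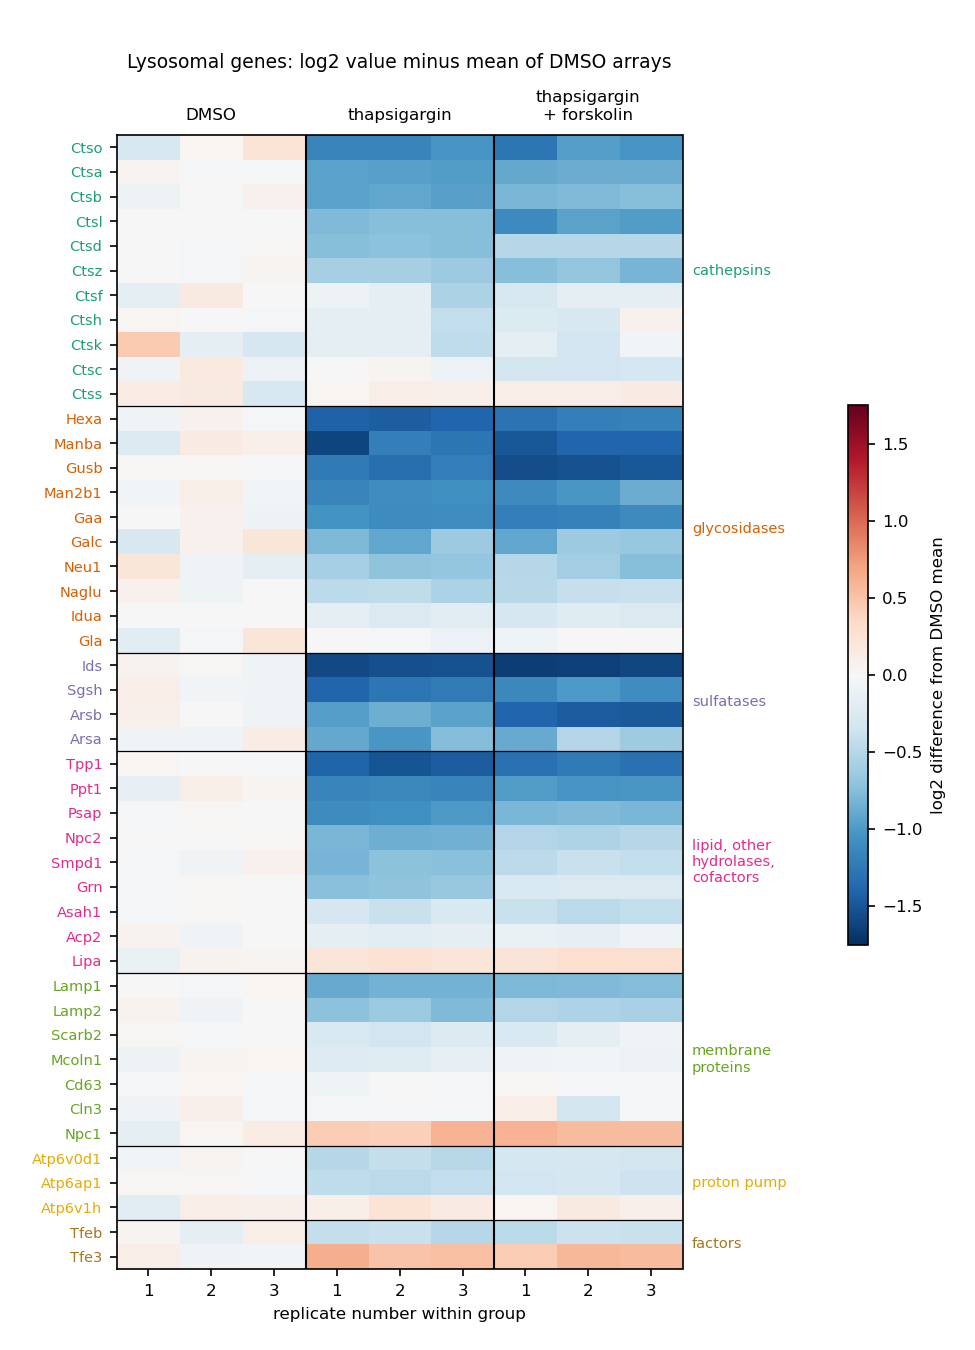
Log2 value of each of the 46 lysosomal genes on each of the 9 arrays minus the gene's mean over the DMSO arrays, with genes in rows grouped by role and arrays in columns grouped by treatment. Blue marks values below the DMSO mean, and the 34 genes that fell after thapsigargin are blue on the thapsigargin arrays, from Ids at -1.55 to Acp2 at -0.17.

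The cathepsins split into members that fell by 0.60 or more and members that did not pass the test. Of 11 measured, 6 fell and 0 rose, with a median difference of -0.60. Ctsa encodes a serine carboxypeptidase that also protects beta-galactosidase and neuraminidase in the lysosome. Its log2 values were 11.29, 11.22 and 11.22 on the DMSO arrays, 10.30, 10.29 and 10.27 on the thapsigargin arrays and 10.34, 10.38 and 10.38 on the combined arrays. Ctsb, the gene of a cysteine protease, read 12.21, 12.30 and 12.37 on the DMSO arrays, 11.36, 11.38 and 11.35 on the thapsigargin arrays and 11.50, 11.53 and 11.54 on the combined arrays. The DMSO arrays were the highest for both genes, with no overlap, and Ctsa fell 1.94-fold (-0.96 ± 0.05 on the log2 scale, limma adjusted p = 3.18e-07) and Ctsb 1.91-fold (-0.93 ± 0.05). Ctsd encodes the main aspartic protease of the lysosome, and its values were 13.06, 13.04 and 13.08 on the DMSO arrays, 12.31, 12.35 and 12.31 on the thapsigargin arrays and 12.57, 12.56 and 12.56 on the combined arrays. For Ctsl, which encodes a cysteine protease known in podocytes for its cleavage of synaptopodin and dynamin, they were 11.52, 11.52 and 11.52 on the DMSO arrays, 10.75, 10.78 and 10.77 on the thapsigargin arrays and 10.41, 10.58 and 10.54 on the combined arrays. Ctsd fell by 0.74 ± 0.04 and Ctsl by 0.75 ± 0.06, and the 3 groups did not overlap for either gene. The combined arrays lay between the other groups for Ctsd and below both for Ctsl.

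The remaining cathepsins that fell were Ctso and Ctsz, both genes of cysteine peptidases. Ctso gave log2 values of 8.16, 8.47 and 8.68 on the DMSO arrays, 7.27, 7.28 and 7.40 on the thapsigargin arrays and 7.17, 7.47 and 7.41 on the combined arrays, and fell by 1.12 ± 0.13, the largest fall among the cathepsins, with more spread between the DMSO arrays than the others. Ctsz gave 10.73, 10.71 and 10.79 on the DMSO arrays, 10.16, 10.16 and 10.11 on the thapsigargin arrays and 10.00, 10.05 and 9.94 on the combined arrays, and fell by 0.60 ± 0.05 (limma adjusted p = 1.24e-05). The 5 cathepsin genes that did not pass had mean log2 values between 4.85 and 5.74 in the DMSO and thapsigargin groups, all under the median of all values, and their differences ran from -0.27 for Ctsf over -0.25 for Ctsh and Ctsk and -0.02 for Ctsc to 0.08 for Ctss. Whether these genes were above the background of the arrays was not tested. Ctss encodes a protease of antigen-presenting cells and Ctsk one of osteoclasts.

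Glycosidases, which remove sugars from glycoproteins, glycolipids and glycosaminoglycans, fell almost throughout. Of 10 measured, 9 fell and 0 rose, 5 of them at least 2-fold, with a median difference of -0.93. Hexa encodes the alpha subunit of beta-hexosaminidase, the enzyme lacking in Tay-Sachs disease, and its log2 values were 10.08, 10.21 and 10.12 on the DMSO arrays, 8.73, 8.69 and 8.76 on the thapsigargin arrays and 8.84, 8.94 and 8.96 on the combined arrays. It fell 2.66-fold (-1.41 ± 0.06, limma adjusted p = 9.49e-08). Gusb, the gene of beta-glucuronidase, had values of 9.38, 9.39 and 9.34 on the DMSO arrays, 8.13, 8.04 and 8.16 on the thapsigargin arrays and 7.82, 7.85 and 7.88 on the combined arrays. Its fall was 2.4-fold (-1.26 ± 0.05), and the combined arrays lay lowest. Manba, which encodes beta-mannosidase, read 9.06, 9.44 and 9.40 on the DMSO arrays, 7.69, 8.10 and 8.04 on the thapsigargin arrays and 7.82, 7.92 and 7.91 on the combined arrays. Its arrays were more spread within groups than those of Hexa and Gusb, yet both treated groups lay far below DMSO, and the gene fell by 1.36 ± 0.13.

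Man2b1, the gene of lysosomal alpha-mannosidase, gave log2 values of 8.87, 9.02 and 8.87 on the DMSO arrays, 7.76, 7.83 and 7.85 on the thapsigargin arrays and 7.80, 7.90 and 8.05 on the combined arrays, and fell by 1.11 ± 0.07. Gaa encodes the acid alpha-glucosidase that degrades glycogen, and its values were 9.32, 9.38 and 9.22 on the DMSO arrays, 8.27, 8.20 and 8.22 on the thapsigargin arrays and 8.11, 8.13 and 8.19 on the combined arrays, a fall of 1.08 ± 0.06 after thapsigargin. For both genes the thapsigargin and combined arrays lay close together and well below DMSO. Galc, which encodes the galactosylceramidase lacking in Krabbe disease, read 7.69, 8.06 and 8.18 on the DMSO arrays, 7.18, 7.06 and 7.34 on the thapsigargin arrays and 7.06, 7.34 and 7.32 on the combined arrays, and fell by 0.78 ± 0.13 with thapsigargin and combined values intermixed. Smaller falls were those of Neu1 at -0.65, Naglu at -0.49 and Idua at -0.20, which encode a sialidase, an N-acetylglucosaminidase and the iduronidase of heparan and dermatan sulfate breakdown. Gla, the gene of the alpha-galactosidase lacking in Fabry disease, a storage disease of podocytes, differed by -0.05 ± 0.09 (95% confidence interval -0.25 to 0.16, limma adjusted p = 0.746). Its DMSO arrays read 7.53, 7.68 and 7.92 and enclosed the values of all the other arrays.

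All 4 sulfatase genes fell, with a median difference of -1.11, the lowest of the 7 role groups. Ids encodes iduronate 2-sulfatase, which acts on heparan and dermatan sulfate, and its log2 values were 11.14, 11.10 and 11.01 on the DMSO arrays, 9.51, 9.54 and 9.56 on the thapsigargin arrays and 9.44, 9.45 and 9.49 on the combined arrays. It fell 2.92-fold (-1.55 ± 0.05, limma adjusted p = 3.39e-08), the largest fall of the 46 genes. Sgsh, the gene of the sulfamidase of heparan sulfate breakdown, read 9.55, 9.39 and 9.36 on the DMSO arrays, 8.04, 8.17 and 8.21 on the thapsigargin arrays and 8.31, 8.43 and 8.35 on the combined arrays. It fell 2.45-fold (-1.29 ± 0.07). Arsb encodes arylsulfatase B, which acts on dermatan and chondroitin sulfate. Its values were 10.23, 10.14 and 10.06 on the DMSO arrays, 9.18, 9.29 and 9.21 on the thapsigargin arrays and 8.76, 8.68 and 8.68 on the combined arrays, highest with DMSO and lowest with the combined treatment, with no overlap between any of the groups. After thapsigargin alone Arsb was lower by 0.92 ± 0.06. Arsa, which encodes the sulfatase of sulfatide, gave 7.27, 7.26 and 7.46 on the DMSO arrays, 6.44, 6.32 and 6.57 on the thapsigargin arrays and 6.45, 6.82 and 6.71 on the combined arrays, and fell by 0.89 ± 0.11. A dimmer probe set of Arsb differed by -0.51 between the group means.

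Among 9 genes of lipid hydrolases, other hydrolases and their cofactors 8 fell and 1 rose, with a median difference of -0.75. Tpp1 encodes the tripeptidyl peptidase lacking in a form of neuronal ceroid lipofuscinosis. Its log2 values were 12.09, 12.05 and 12.03 on the DMSO arrays, 10.66, 10.54 and 10.60 on the thapsigargin arrays and 10.75, 10.82 and 10.75 on the combined arrays, and it fell 2.74-fold (-1.46 ± 0.05, limma adjusted p = 4.72e-08). Ppt1, the gene of a thioesterase that removes palmitate from proteins, read 10.53, 10.77 and 10.71 on the DMSO arrays, 9.51, 9.54 and 9.50 on the thapsigargin arrays and 9.69, 9.64 and 9.65 on the combined arrays, a fall of 1.15 ± 0.07. In both genes the combined arrays lay slightly above the thapsigargin arrays and far below DMSO.

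Psap encodes the precursor of the saposins, the activators of sphingolipid hydrolases, and gave log2 values of 12.17, 12.21 and 12.19 on the DMSO arrays, 11.09, 11.12 and 11.19 on the thapsigargin arrays and 11.39, 11.42 and 11.39 on the combined arrays. It fell 2.08-fold (-1.06 ± 0.05). Npc2, the gene of a soluble cholesterol-binding protein, read 10.65, 10.66 and 10.69 on the DMSO arrays, 9.87, 9.81 and 9.83 on the thapsigargin arrays and 10.15, 10.12 and 10.17 on the combined arrays, and fell by 0.83 ± 0.05. Smpd1 encodes acid sphingomyelinase, an enzyme that splits sphingomyelin into ceramide and phosphocholine, and its values were 10.51, 10.47 and 10.60 on the DMSO arrays, 9.72, 9.80 and 9.80 on the thapsigargin arrays and 10.07, 10.14 and 10.09 on the combined arrays, a fall of 0.75 ± 0.06. Psap, Npc2 and Smpd1 shared a pattern in which the combined arrays lay between thapsigargin and DMSO with no overlap.

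Grn encodes progranulin, which is cut into granulins in the lysosome. Its log2 values were 12.14, 12.19 and 12.17 on the DMSO arrays, 11.43, 11.46 and 11.50 on the thapsigargin arrays and 11.90, 11.91 and 11.91 on the combined arrays. It fell by 0.70 ± 0.05 after thapsigargin (limma adjusted p = 2.02e-06), and its combined arrays lay closer to DMSO than to thapsigargin. Asah1, the gene of acid ceramidase, fell by 0.32 ± 0.05. Acp2, the gene of an acid phosphatase, fell by 0.17 ± 0.05 (limma adjusted p = 0.0311), a call lost in 7 of 17 alternatives, including without DMSO replicate 1 or 3 and without any 1 of the thapsigargin arrays (limma adjusted p up to 0.104). Lipa, the gene of the acid lipase that frees cholesterol from its esters, went the other way, and is named with its values although it falls outside the rule for naming genes. It read 11.13, 11.30 and 11.30 on the DMSO arrays, 11.45, 11.50 and 11.46 on the thapsigargin arrays and 11.48, 11.54 and 11.52 on the combined arrays, and rose by 0.23 ± 0.06 (limma adjusted p = 0.0155), a call lost without thapsigargin replicate 2 and after a further quantile normalization (limma adjusted p up to 0.148).

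Of 7 membrane protein genes 4 fell and 1 rose, against 16.9% and 18.2% of all genes. The count that rose is near the share of all genes. Their median difference was -0.19, beside -0.77 over the 34 hydrolases and cofactors, and the gap between these medians was not tested. Lamp1 and Lamp2 encode the most abundant glycoproteins of the lysosomal membrane. Lamp1 gave log2 values of 12.15, 12.13 and 12.20 on the DMSO arrays, 11.27, 11.33 and 11.33 on the thapsigargin arrays and 11.37, 11.38 and 11.40 on the combined arrays. Lamp2 gave 11.40, 11.27 and 11.32 on the DMSO arrays, 10.61, 10.67 and 10.56 on the thapsigargin arrays and 10.82, 10.79 and 10.76 on the combined arrays. Both lay lowest on the thapsigargin arrays with no overlap, and Lamp1 fell by 0.85 ± 0.05 (limma adjusted p = 6.86e-07) and Lamp2 by 0.71 ± 0.06. Scarb2, the gene of LIMP-2, which carries glucocerebrosidase to the lysosome, fell by 0.28 ± 0.06. Mcoln1, which encodes the calcium channel TRPML1, fell by 0.19 ± 0.06 (limma adjusted p = 0.0253), a call lost in 6 of 17 alternatives, including without DMSO replicate 2 or 3 and without thapsigargin replicate 1 or 2 (limma adjusted p up to 0.0974).

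Npc1 encodes the membrane protein that takes cholesterol over from NPC2, and it rose while Npc2 fell. It is named with its values outside the naming rule. Its log2 values were 9.09, 9.30 and 9.38 on the DMSO arrays, 9.70, 9.68 and 9.86 on the thapsigargin arrays and 9.87, 9.81 and 9.82 on the combined arrays, a rise of 0.49 ± 0.08 with no overlap (limma adjusted p = 0.00101). A dimmer probe set of Npc1, with a mean of 5.57, differed by -0.17 between the groups' means, and with the mean of both probe sets the difference was 0.16 and the call was lost (limma adjusted p = 0.0927). Cd63, the gene of a tetraspanin of lysosomes and exosomes, differed by -0.03 ± 0.05 (95% confidence interval -0.14 to 0.08), and Cln3, the gene of a lysosomal membrane protein mutated in juvenile Batten disease, by -0.02 ± 0.10 (interval -0.25 to 0.20).

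The proton pump, or V-ATPase, acidifies the lysosome, and 2 of its 3 genes listed here fell, against 16.9% of all genes. So few genes do not describe the pump as a whole. Atp6v0d1, which encodes a subunit of the membrane sector, had log2 values of 11.46, 11.55 and 11.52 on the DMSO arrays, 11.01, 11.09 and 11.03 on the thapsigargin arrays and 11.20, 11.22 and 11.19 on the combined arrays, and fell by 0.47 ± 0.05 (limma adjusted p = 5.43e-05). Atp6ap1, the gene of an accessory subunit, had values of 11.40, 11.40 and 11.35 on the DMSO arrays, 10.93, 10.91 and 10.95 on the thapsigargin arrays and 11.05, 11.07 and 11.01 on the combined arrays, and fell by 0.45 ± 0.05. All thapsigargin arrays lay below all DMSO arrays for both genes, with the combined arrays in between. Atp6v1h, a gene of the cytosolic sector, differed by 0.17 ± 0.09 with overlapping groups.

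Tfeb and Tfe3 moved in opposite directions. Tfeb gave log2 values of 6.32, 6.11 and 6.36 on the DMSO arrays, 5.85, 5.88 and 5.76 on the thapsigargin arrays and 5.80, 5.89 and 5.88 on the combined arrays, and fell by 0.43 ± 0.07 (limma adjusted p = 0.00108). Tfe3 gave 9.90, 9.72 and 9.74 on the DMSO arrays, 10.42, 10.29 and 10.31 on the thapsigargin arrays and 10.23, 10.37 and 10.34 on the combined arrays, and rose 1.47-fold (0.56 ± 0.07, limma adjusted p = 0.000151). For neither gene did the thapsigargin arrays overlap the DMSO arrays, and Tfeb lay near the median of all values in both groups. The arrays measure the RNA of these factors, whereas their activity is known to be set largely by phosphorylation and entry into the nucleus, which was not measured.

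**Figure D2:**
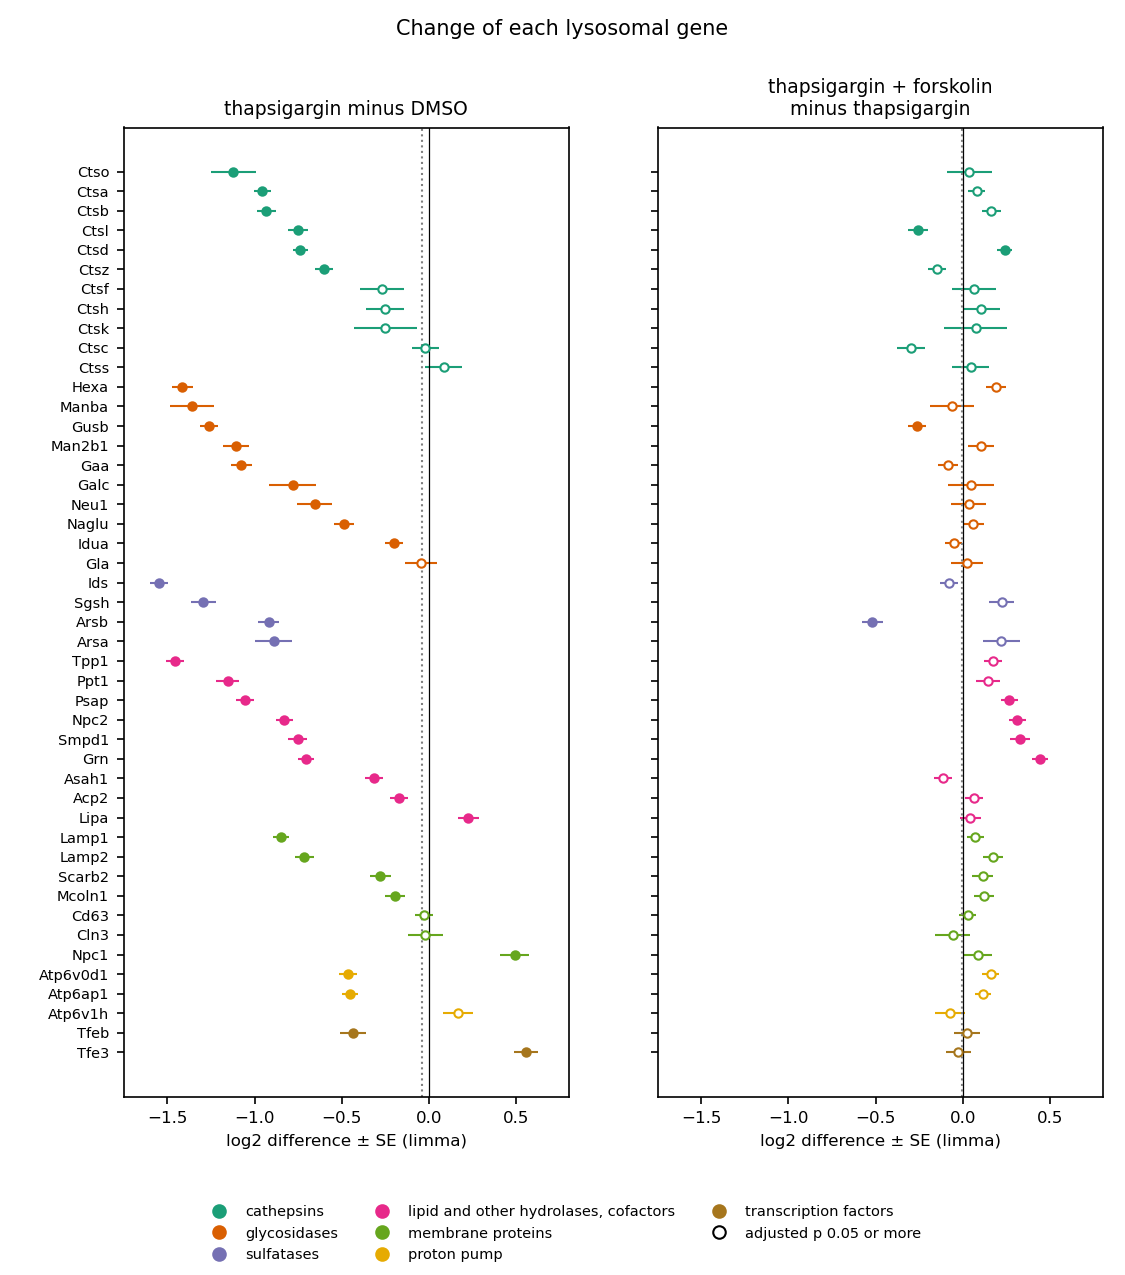
Log2 difference of each of the 46 genes ± its limma standard error, for thapsigargin minus DMSO on the left and combined minus thapsigargin on the right, with filled points where the adjusted p is below 0.05, colours for the role groups and a dotted line at the median of all genes. On the left most filled points lie below 0, with Lipa, Npc1 and Tfe3 above it; on the right 8 points are filled, from Arsb at -0.52 to Grn at 0.44.

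The genes whose promoters are printed above did not move alike. After thapsigargin the log2 difference was -0.96 for Ctsa, -0.74 for Ctsd, -0.47 for Atp6v0d1, -0.19 for Mcoln1, -0.05 for Gla and -0.02 for Cln3, all of which hold the octamer. Lamp1, with 4 hexamers, fell by 0.85, and Ids, with none, fell by 1.55. Of the other genes with a hexamer, Sgsh, Gaa, Arsa, Ctsl and Naglu fell, by 1.29 ± 0.07, 1.08 ± 0.06, 0.89 ± 0.11, 0.75 ± 0.06 and 0.49 ± 0.06, Ctsf differed by -0.27 ± 0.13 and did not pass, and Glb1 was not measured. None of the 8 genes of the lipid and cofactor group that have a window held either string, and 7 of the 8 fell. No string was found in the windows of Tfeb and Tfe3.

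Lysosomal genes outside the list of 47 were examined with lists chosen by function. Their counts after thapsigargin are to be read against 16.9% of all genes called lower and 18.2% called higher. Of 19 other hydrolases and their cofactors 12 fell and 2 rose, with a median difference of -0.74. Gm2a, which encodes the activator protein of hexosaminidase, fell by 1.33 ± 0.05, Galns, the gene of a keratan sulfate sulfatase, by 1.32 ± 0.07, and Hgsnat, the gene of an acetyltransferase of heparan sulfate breakdown, by 1.23 ± 0.06. Scpep1, the gene of a serine carboxypeptidase, rose by 1.22 ± 0.05, and Naaa, the gene of an acylethanolamine hydrolase, by 0.73 ± 0.08; Naaa was singled out once its value was known. Of 25 other membrane proteins 14 fell and 5 rose, with a median of -0.24. The count that rose is near the share of all genes. Tpcn1, which encodes a calcium and sodium channel of endolysosomes, fell by 1.63 ± 0.05, Sidt2 by 0.99 ± 0.05, Glmp by 0.92 ± 0.05 and the transporter gene Abca2 by 0.87 ± 0.06. The members that rose were Slc38a9, the gene of an arginine sensor, at 0.75, the iron transporter gene Slc11a2 at 0.73, Lmbrd1 at 0.44, Mfsd8 at 0.39 and Tmem192 at 0.36, all named after their values were seen.

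Of 20 other V-ATPase genes 13 fell and 2 rose, against 16.9% and 18.2% of all genes, with a median of -0.31. Atp6v0a1 fell by 0.82 ± 0.07 while Atp6v0a2 rose by 0.75 ± 0.06; they encode alternative forms of the same subunit of the membrane sector. Atp6v0e2 and Atp6v1e1 each fell by 0.58, and Atp6v1g1, singled out once its value was known, rose by 0.25 ± 0.05. Of 12 genes that sort hydrolases to the lysosome 7 fell and 1 rose, against the same shares of all genes, with a median of -0.22. Sort1, the gene of the sorting receptor sortilin, fell by 1.28 ± 0.06, the adaptor gene Gga2 by 1.01 ± 0.12, Igf2r, the gene of the large mannose 6-phosphate receptor, by 0.90 ± 0.09, and Gnptab, which encodes the enzyme that starts the tag, by 0.46 ± 0.06. M6pr, the gene of the small receptor, differed by 0.11 ± 0.06 (limma adjusted p = 0.201), and Gga3 rose by 0.25 ± 0.05, both named after their values were seen.

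**Figure D3:**
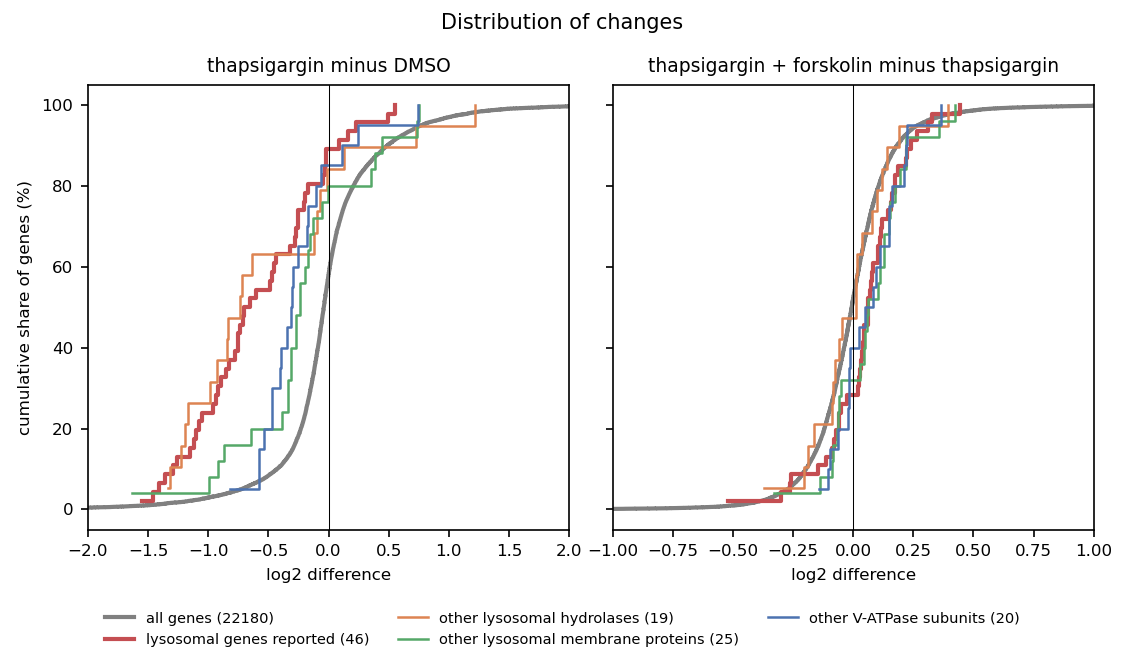
Cumulative share of genes, in percent, against the log2 difference for thapsigargin minus DMSO on the left (range shown -2 to 2) and combined minus thapsigargin on the right (range shown -1 to 1), for all 22180 genes, the 46 lysosomal genes and 3 lists of other lysosomal genes. On the left the curve of the 46 genes passes 50% at a difference of -0.68 and that of all genes at -0.04; on the right they pass it at 0.06 and -0.01.

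The next comparison asked what forskolin changed when it was added to thapsigargin. Of the 46 genes 5 rose and 3 fell, and 38 did not pass the test, against 3.7% of all genes called higher and 4.17% called lower. The median difference was 0.06 over the 46 genes and -0.01 over all genes. All combined arrays lay above all thapsigargin arrays for 17 of the 46 genes, against 12.1% of all genes, and below them for 8, against 14% of all genes. Of the 46 genes 0 were called with a change of at least 2-fold in limma, against 0.401% of all genes; 8 were called at any size. The count of genes that rose was 12 with an intensity trend and robust prior and 10 after a filter on dim genes, and the count that fell was 1 without thapsigargin replicate 1, thapsigargin replicate 3 or combined replicate 1. This comparison and the previous one share the thapsigargin arrays, so that a high or low value there moves both.

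The genes that rose with forskolin were Grn, Smpd1, Npc2, Psap and Ctsd. Grn rose by 0.44 ± 0.05 (limma adjusted p = 0.000476), from values of 11.43 to 11.50 to values of 11.90 to 11.91. Smpd1 rose by 0.33 ± 0.06 (adjusted p = 0.00696) and its dimmer probe set differed by 0.28 between the group means. Npc2 rose by 0.31 ± 0.05 (adjusted p = 0.00326), Psap by 0.27 ± 0.05 (adjusted p = 0.00956) and Ctsd by 0.24 ± 0.04 (adjusted p = 0.011). Progranulin and prosaposin are known to bind each other, and a link of this to the changes was not tested. Of the 9 genes of the lipid and cofactor group 4 rose and 0 fell, with a median of 0.17. Of all genes 3.7% were called higher and 4.17% lower. The 5 calls held in each of the 17 alternatives.

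The genes that fell with forskolin were Arsb, Gusb and Ctsl. Arsb fell by 0.52 ± 0.06 (limma adjusted p = 0.000903), and its dimmer probe set differed by -0.48 between the group means. Gusb fell by 0.26 ± 0.05 (adjusted p = 0.014) and Ctsl by 0.26 ± 0.06 (adjusted p = 0.0233). Of these calls only that of Arsb held in each of the 17 alternatives. That of Gusb was lost without thapsigargin replicate 1 or 3 and without combined replicate 1 or 2 (limma adjusted p up to 0.0617), and that of Ctsl without any 1 of the thapsigargin arrays and without combined replicate 1 or 3 (limma adjusted p up to 0.0808). Ctsc, which encodes the dipeptidyl peptidase that activates serine proteases of leukocytes, differed by -0.30 ± 0.08 with no overlap between the groups and missed the threshold (limma adjusted p = 0.0551), but was called in 6 of 16 alternatives, with adjusted p from 0.0185 to 0.178 over them.

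Most other genes that had fallen with thapsigargin did not pass the test between thapsigargin and the combined treatment. The difference was -0.08 ± 0.05 for Ids (95% confidence interval -0.20 to 0.04) and 0.07 ± 0.05 for Lamp1 (interval -0.04 to 0.18). Their limma adjusted p was 0.505 and 0.501. Hexa differed by 0.19 ± 0.06 (interval 0.06 to 0.32) and Tpp1 by 0.17 ± 0.05 (interval 0.05 to 0.29). Both of these intervals, which are not adjusted, exclude 0, and the limma adjusted p was 0.0952 and 0.0909. Hexa was called higher in 4 of 17 alternatives and Tpp1 in 3. Of the 38 genes not called, 9 were called in at least 1 alternative, among them Sgsh and Ctsb as higher and Ctsz as lower. Among the 7 membrane protein and 3 proton pump genes 0 passed, against 3.7% of all genes called higher and 4.17% called lower. For so few genes a count of 0 is near these shares. The unadjusted limma p was below 0.05 for Lamp2, Atp6v0d1 and Atp6ap1, and other fits called these 3 genes in some alternatives. Differences of the membrane protein and proton pump genes ran from -0.07 for Atp6v1h to 0.17 for Lamp2. Tfeb differed by 0.02 ± 0.07 (interval -0.14 to 0.19) and Tfe3 by -0.03 ± 0.07 (interval -0.18 to 0.13). Of the 103 measured genes of the lists outside the 47, 4 rose and 5 fell. Both counts are near the shares of all genes, 3.7% and 4.17%. Tpcn1 rose by 0.42 ± 0.05, Hgsnat and Sort1 by 0.39 ± 0.06 and 0.39 ± 0.06, and Lmbrd1 by 0.36 ± 0.05. Among those that fell were Galns by 0.37 ± 0.07, Tmem192 by 0.33 ± 0.05 and Gnptab by 0.27 ± 0.06.

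**Figure D4:**
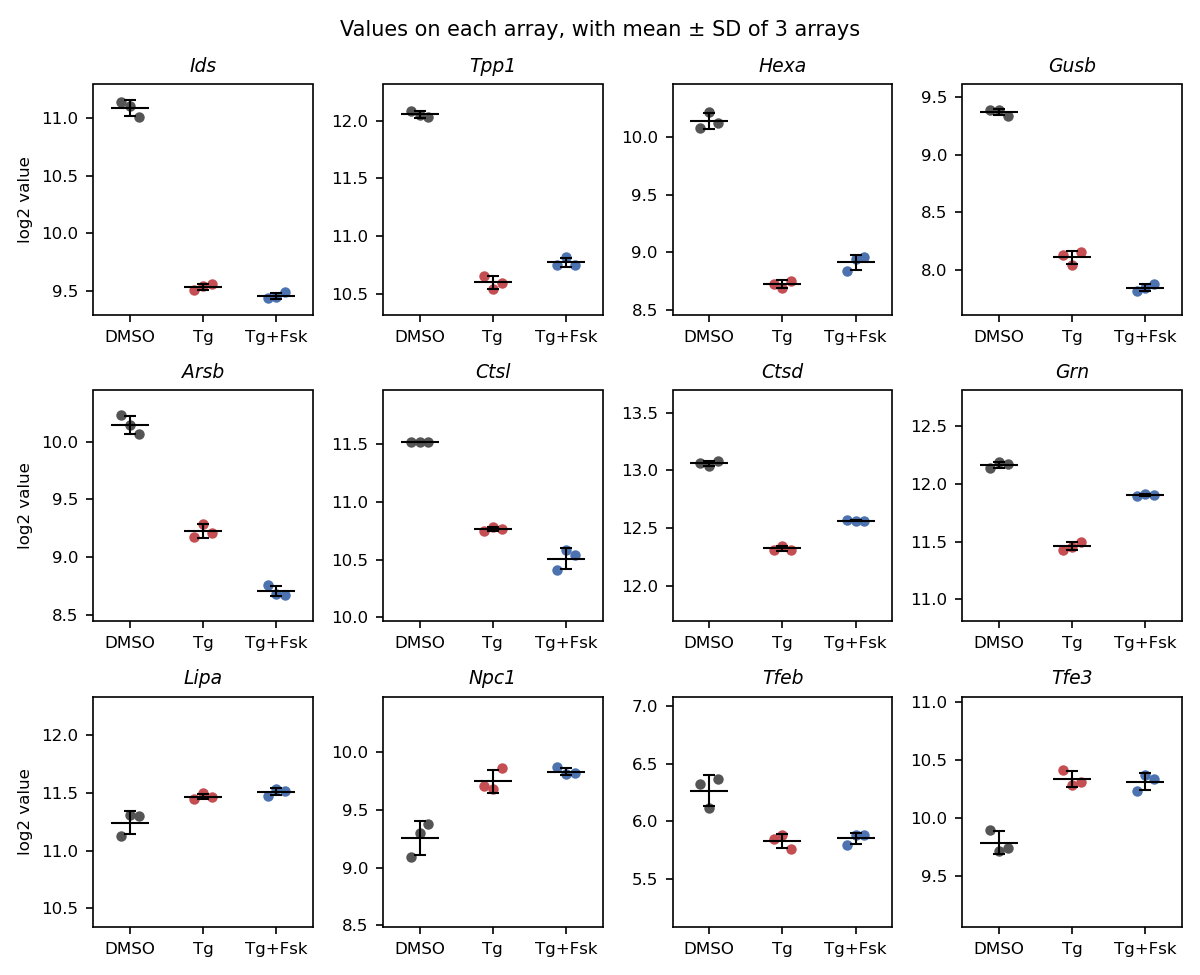
Log2 values of 12 lysosomal genes on each array (points), with the mean (bar) ± SD of the 3 arrays of a group, for DMSO, thapsigargin (Tg) and thapsigargin with forskolin (Tg+Fsk); each panel spans 2 log2 units and does not start at 0. Grn and Ctsd partly return towards the DMSO level on the combined arrays, Arsb, Gusb and Ctsl are lowest there, and Lipa, Npc1 and Tfe3 are above DMSO in both treated groups.

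Against DMSO the combined treatment left 32 of the 46 genes lower and 3 higher, against 16.7% and 17.9% of all genes, with a median difference of -0.47 over the 46 genes and -0.04 over all genes. Ids was lower by 1.63 ± 0.05, Gusb by 1.52 ± 0.05, Arsb by 1.44 ± 0.06 and Manba by 1.42 ± 0.13, and 12 of the 46 genes were at least 2-fold lower, against 2.7% of all genes. Ctsl was lower 2.01-fold (-1.01 ± 0.06, limma adjusted p = 7.28e-07). Grn was still lower by 0.26 ± 0.05 (adjusted p = 0.00169), Npc2 by 0.52 ± 0.05 and Smpd1 by 0.43 ± 0.06. Lipa, Npc1 and Tfe3 were higher, by 0.27 ± 0.06, 0.58 ± 0.08 and 0.53 ± 0.07. Scarb2, Mcoln1 and Acp2, which had fallen after thapsigargin alone, did not pass. They differed by -0.17 ± 0.06, -0.07 ± 0.06 and -0.11 ± 0.05 (limma adjusted p = 0.0674, 0.373 and 0.152). For Scarb2 and Acp2 all combined arrays still lay below all DMSO arrays, whereas those of Mcoln1 overlapped. The unadjusted 95% confidence interval of Scarb2 was -0.31 to -0.03. Scarb2 was called lower in 4 of 17 alternatives and Acp2 in 1, so a return of these genes to the DMSO level is not shown. Ctsc, which had not passed after thapsigargin alone, was lower by 0.32 ± 0.08 (limma adjusted p = 0.0112), at values under the median of all values.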

How the data were processed

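Total RNA of cultured podocytes was hybridised to 9 single-channel arrays. The deposited table holds log2 values that the authors made with affy and RMA, which corrects background, normalises by quantiles and summarises probes, per the submitters' processing notes; versions, the array's scans and a genome build for its probes are not stated in the sources used. Of 41345 probe sets, 23521 had 1 symbol, 1814 several and 16010 none in the platform annotation, and 23328 symbols matched RefSeq by Entrez ID with 0 changed. The brightest 1-symbol probe set stood for a gene. Groups were fitted together with limma 3.58.1 in R 4.3.3 (group means, eBayes, two-sided, Benjamini-Hochberg over 22180 genes, threshold 0.05), which left 6 residual degrees of freedom. The fit was tested on simulated data. With 3 arrays against 3, an exact permutation test of a single gene cannot give a p below 0.1, and the number of arrays limits the precision. Errors after ± are standard errors of the fit, with n = 3 arrays a group.

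The members, lists and markers were chosen with earlier results of these data known. Values on every array are given for called genes with a log2 change of at least 0.5 after thapsigargin or with added forskolin, at most 6 per role group, for Tfeb and Tfe3 always, and from each other list up to 4 called genes with the largest change are named. Genes beyond this are named to show the rest of a role group, genes of the opposite direction or promoters. There were 17 alternatives: fits to the compared arrays alone, with an intensity trend and robust prior, with array weights or with a replicate block, centring on array medians, further quantile normalization, a filter on dim genes, the mean of all probe sets of a gene, and leaving out each of the 9 arrays. Whether replicate numbers pair the arrays is not stated in the labels. Deviations from the group means correlated at -0.074 to 0.247 for same-numbered arrays, over 0.1 in 4 of 9 pairs. For arrays with other numbers they correlated at -0.302 to 0.254. These ranges overlap and do not settle the question, so the block was kept as an alternative. Promoter windows were searched with Python 3.11.15.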

Additional observations from a re-analysis of the deposited data

How the results depend on the processing

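Of the calls among the 46 genes, 33 of 37 for thapsigargin against DMSO, 6 of 8 for added forskolin and 35 of 35 for the combined treatment against DMSO held under all 17 alternatives, and 0 reversed; the report names the lost calls. The count of genes higher with added forskolin was 5, but 12 with an intensity trend and robust prior and 10 after a filter on dim genes, which left 41 of the 46 genes; the cause of the higher count under the trend was not tested. Leaving out 1 array at a time gave 5 to 5 genes higher and 1 to 4 lower with added forskolin, with 1 lower without thapsigargin replicate 1, thapsigargin replicate 3 or combined replicate 1; 2 to 3 higher and 32 to 35 lower for thapsigargin against DMSO; and 3 to 3 higher and 32 to 33 lower for the combined treatment. A block for the replicate number gave 3 higher and 34 lower, 5 higher and 3 lower, and 3 higher and 32 lower, as without it. The median over the 46 genes ranged from -0.737 to -0.641 after thapsigargin and from 0.028 to 0.083 with added forskolin. Genes near background are limited by their signal, which was not tested against background.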

Other observations

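Of 20 measured genes that control TFEB, or are related to it, 8 rose and 3 fell after thapsigargin, against 18.2% and 16.9% of all genes, with a median log2 difference of 0.15 beside -0.04 over all genes. Rragb and Rraga, which encode Rag GTPases that hold TFEB and mTORC1 at the lysosome, rose by 0.60 ± 0.16 and 0.56 ± 0.05. Mitf, the gene of a relative of TFEB, rose by 0.49 ± 0.10, and Lamtor4, a gene of the complex that anchors the Rag GTPases, fell by 0.56 ± 0.08. With added forskolin 1 of the 20 fell, Rraga by 0.24 ± 0.05, against 4.17% of all genes called lower.

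The cystatins inhibit cathepsins. Of 7 measured 2 fell and 0 rose after thapsigargin, against 16.9% and 18.2% of all genes. Counts of so few genes were not tested against these shares. Cst3, the gene of secreted cystatin C, fell by 1.34 ± 0.06 and Cstb by 0.33 ± 0.08. The 5 that did not pass had mean log2 values of 3.11 to 5.88 on the DMSO arrays, beside a median of all values of 5.84. Cst3 fell by a further 0.48 ± 0.06 with added forskolin (limma adjusted p = 0.000855). Over the 103 measured genes of the lists outside the 47, 51 fell and 18 rose after thapsigargin, against 16.9% and 18.2% of all genes. They include the cystatins and the genes that control TFEB, not all of which are lysosomal. The count that rose is near the share of all genes, and 8 of the 18 are TFEB relatives or control genes. With added forskolin 5 fell and 4 rose, against 4.17% and 3.7%, both near the share of all genes. Of the 83 of them with a promoter window, 12% held TCACGTGA and 22.9% CACGTG.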
